A study of Homo sapiens with 12 samples.

Results

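The genes of the apelin receptor system were followed through 4 stages of human blood cell formation in culture. Its members were chosen by symbol: APLNR, the receptor, and APLN and APELA, the genes of its peptide ligands, which are 3 of the 56593 symbols in the expression table. Expression was measured by RNA-seq in undifferentiated H1, an established human embryonic stem cell (hESC) line, and in 3 populations made from H1 and defined by surface proteins: APLNR+ mesoderm cells of day 2, CD31+CD34+ hemogenic endothelial progenitors (HEPs) of day 5 and CD43+ hematopoietic progenitor cells (HPCs) of day 8. Each was represented by 3 libraries, 12 in total, from a single line with no genetic change. By the labels, APLNR+ cells received activin A and BMP4 for 2 days. CD31+CD34+ and CD43+ cells received these and then VEGF at 40 ng/ml and bFGF at 50 ng/ml. For both populations the labels list 6 days of VEGF and bFGF after the first 2 days. The CD31+CD34+ cells are nevertheless given as day 5, so how long they received VEGF and bFGF is uncertain. No factors are listed for H1, so the factors received differ with the stage. The labels give activin A at 40 ng/ml and BMP4 at 50 ng/ml, and the study's methods give these doses the other way round, so the dose of each is uncertain. How the populations were separated is not given in the sources used here. The study's methods say in general that analyses rested on independent experiments, and the labels do not say so of these libraries, so the p values measure the spread between these libraries, which may be technical.

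APLNR is a G protein-coupled receptor of the cell surface. It signals through inhibitory G proteins and beta-arrestins, and it marks mesoderm with the potential to form blood vessels and blood. Apelin, encoded by APLN, is known from sprouting endothelium, where tip cells make it, and is cut by proprotein convertases into short active peptides. Apela, also called Elabela or Toddler and encoded by APELA, is a second ligand that is made by pluripotent stem cells and acts on the same receptor in early mesoderm and heart formation.

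The coding sequences of both ligands are shown because the data turn on which of them was transcribed. They were read from GENCODE release 29, which has a single APLN transcript, APLN-201, with 3 exons on the minus strand of chromosome X, and 5 APELA transcripts on the plus strand of chromosome 4, of which APELA-202 is shown. Capitals mark the codons of the shortest commonly used active peptide, apelin-13, and of the mature 32-residue peptide ELA-32, both at the end of the reading frame.
APLN: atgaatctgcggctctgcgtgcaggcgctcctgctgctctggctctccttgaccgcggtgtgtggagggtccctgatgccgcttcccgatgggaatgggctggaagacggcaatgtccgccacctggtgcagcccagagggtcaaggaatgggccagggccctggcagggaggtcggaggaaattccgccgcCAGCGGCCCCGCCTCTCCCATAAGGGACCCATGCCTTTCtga
APELA: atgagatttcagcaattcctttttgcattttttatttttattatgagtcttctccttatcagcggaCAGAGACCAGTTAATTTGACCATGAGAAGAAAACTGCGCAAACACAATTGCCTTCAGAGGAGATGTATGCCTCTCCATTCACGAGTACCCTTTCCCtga
The APLN frame encodes 77 residues, of which apelin-13 takes up the last 13, and the APELA frame encodes 54, of which ELA-32 takes up the last 32. The marked stretch is therefore the smaller part of the APLN frame and the larger part of the APELA frame. Since the shortest apelin peptide was marked, this does not compare how much of each precursor is cut away.

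All values are FPKM, fragments per kilobase of transcript and per unit of mapped fragments in the library, so levels of different genes can be set side by side. The spacing of the lowest values implied between 48100000 and 110700000 fragments per library, and replicate 1 was the shallowest library of each population. The summed FPKM of a library ranged from 567793 to 1564449. Surface marker genes were expressed in the populations named for them. PECAM1 (CD31) and CD34 averaged 55.2 ± 4.10 and 47.7 ± 7.08 FPKM in the CD31+CD34+ libraries and below 1 FPKM in the stages before. They did not single out that population, since in the CD43+ libraries PECAM1 averaged 95.9 ± 11.7 FPKM and CD34 22.2 ± 4.21. SPN, the CD43 gene, averaged 75.5 ± 15.2 FPKM in the CD43+ libraries and at most 3.70 ± 0.748 FPKM in the other populations (SD, n = 3). PTPRC, the pan-leukocyte gene encoding CD45, averaged at most 0.197 FPKM in any population, CD43+ cells included. In bulk RNA, fewer cells of a type and less RNA per cell cannot be told apart.

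The receptor transcript was high at 2 successive stages, barely present before them and lower after them. APLNR stood at 0.688, 0.386 and 0.509 FPKM in the H1 libraries and at 388, 402 and 359 FPKM in the APLNR+ libraries. In CD31+CD34+ cells it stood at 381, 429 and 398 FPKM, and in CD43+ cells at 21.7, 26.2 and 23.2 FPKM. The APLNR+ and CD31+CD34+ libraries overlapped, every CD43+ library lay far below both, and every H1 library lay below 1 FPKM. The means were 0.528 ± 0.152, 383 ± 22.3, 403 ± 24.6 and 23.7 ± 2.27 FPKM in order of stage (SD, n = 3). Within each library's tested genes this placed APLNR at mean percentile 9.13 in H1, 98.9 in the APLNR+ libraries, 98.8 in the CD31+CD34+ libraries and 81.9 in the CD43+ libraries.

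APLN was expressed as a pulse at a single stage. Its 3 H1 libraries had 0.254, 0.278 and 0.293 FPKM and its APLNR+ libraries 0.0153, 0.0164 and 0.0462 FPKM. The CD31+CD34+ libraries had 22.4, 26.6 and 23.7 FPKM, and the CD43+ libraries 0.204, 0.185 and 0.103 FPKM. Every CD31+CD34+ library was above 20 FPKM and every other library was below 0.3 FPKM. The means were 0.275 ± 0.0195, 0.0260 ± 0.0175, 24.2 ± 2.17 and 0.164 ± 0.0539 FPKM (SD, n = 3). APLN reached the minimum for testing, 1 FPKM in at least 3 libraries, only through CD31+CD34+ cells, so it had to differ there if it was tested at all.

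APELA declined at every stage. It stood at 11.02, 12.1 and 12.8 FPKM in H1 and at 4.06, 6.02 and 6.77 FPKM in APLNR+ cells. The CD31+CD34+ libraries had 1.05, 1.16 and 1.44 FPKM and the CD43+ libraries 0.461, 0.581 and 0.353 FPKM. No library of a later stage reached the lowest library of the stage before. The means were 11.97 ± 0.894, 5.62 ± 1.40, 1.22 ± 0.203 and 0.465 ± 0.114 FPKM (SD, n = 3), and the mean percentile among tested genes went from 66.2 in H1 to 10.2 in CD43+ cells. The length assumed for APELA affects its FPKM, since its annotated transcripts run from 551 to 2602 bases.

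**Figure D1:**
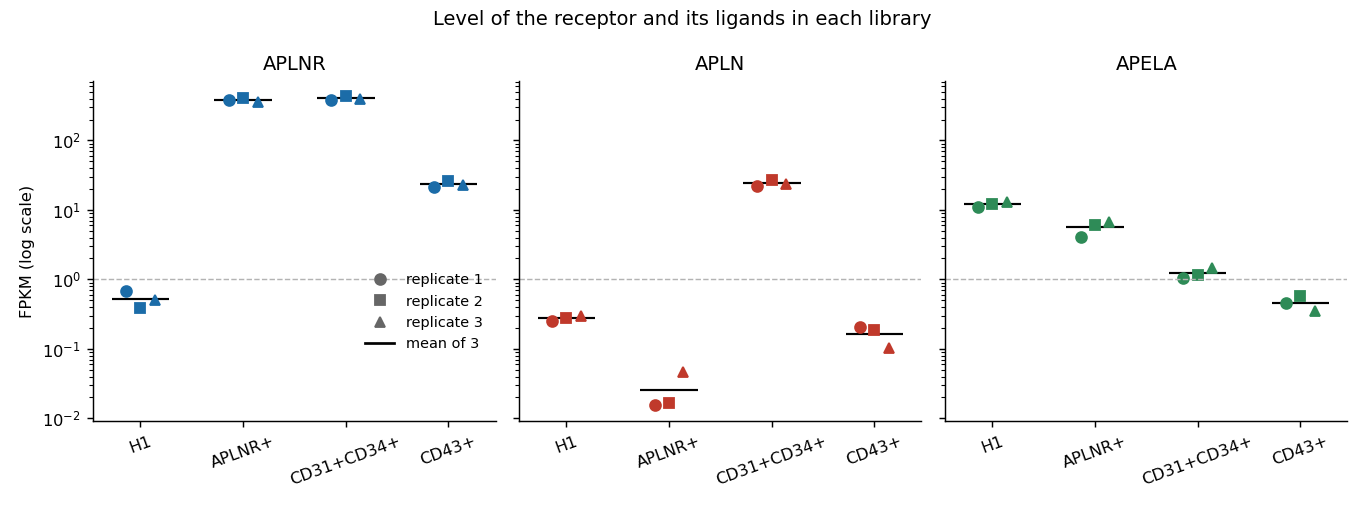
FPKM of APLNR, APLN and APELA (log axis) in the 4 populations, with 1 point per library shaped by replicate number, a bar at the mean of 3 and a dashed line at 1 FPKM. APLNR is between 359 and 429 FPKM in APLNR+ and CD31+CD34+ cells, APLN is above 20 FPKM in CD31+CD34+ cells alone, and APELA steps down from 11.97 to 0.465 FPKM.

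Between H1 and APLNR+ cells, APLNR was 1 of 3 members called raised (limma adjusted p under 0.05 and at least 2-fold), beside 8.3% of the 14840 genes tested. Its log2(FPKM + 1) rose by 7.98 ± 0.10 (SE, adjusted p 1.51e-13), and 1 gene of the table rose by more. Since these cells were chosen for APLNR protein, this change checks the selection and is not a finding of the comparison. No ligand was called lowered, beside 7.62% of all genes. APELA nevertheless went from a mean of 11.97 to 5.62 FPKM, 2.13-fold lower, with a log2 change of -0.99 ± 0.15 (adjusted p 0.000120) that lay just under the 2-fold minimum. It passed that minimum without H1 replicate 1 (-1.04), without APLNR+ replicate 2 (-1.05) or without APLNR+ replicate 3 (-1.12). The median of all genes was -0.12 at this step.

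APLN also had its lowest level in APLNR+ cells. Its change on the log2(FPKM + 1) scale was -0.31 ± 0.09 (adjusted p 0.00789), too small for a call on a scale that compresses values below 1 FPKM. The 3 APLNR+ libraries lay below the 3 H1 libraries. The FPKM values correspond to about 46, 82 and 91 fragments in H1 and about 3, 5 and 15 in APLNR+ cells, an estimate from the spacing of low values. Pooled over libraries and divided by depth, that is 9.91-fold fewer in APLNR+ cells (95% exact interval 6.44 to 16.0, counting error only). APLNR+ cells with the receptor at 383 FPKM thus held hardly any transcript of this ligand.

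Between APLNR+ and CD31+CD34+ cells no change of the receptor transcript was detected. Its log2 change was 0.07 ± 0.10 (adjusted p 0.531), and the libraries of the populations overlapped. Of the ligands, 1 was called raised, beside 12.5% of all genes, and 1 was called lowered, beside 17.1%. APLN rose by 4.62 ± 0.09 (SE, adjusted p 3.31e-12), from a mean of 0.0260 to 24.2 FPKM, and 36 genes of 14840 rose by more. Because APLN was tested only through CD31+CD34+ cells, its call and rank here were tied to the filter. By estimated fragments, 23 in the pooled APLNR+ libraries against 19035 in CD31+CD34+ cells, the level was 880-fold higher (95% exact interval 586 to 1388, counting error only). APELA fell by 1.56 ± 0.15 (adjusted p 1.44e-06), and its FPKM was 4.62-fold lower.

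Between CD31+CD34+ and CD43+ cells 0 members were called raised, beside 5.58% of all genes, and both APLNR and APLN were called lowered, beside 8.79%. APLN fell by 4.44 ± 0.09 (adjusted p 5.96e-12), with 9 genes falling further, and APLNR fell by 4.03 ± 0.10 (adjusted p 5.18e-11), with 15 falling further. The call and rank of APLN were again tied to the filter. In FPKM the ligand was 148-fold lower and the receptor 17.002-fold lower, so CD43+ cells had a receptor level well above that of H1 and an APLN level below it. APELA changed by -0.60 ± 0.15 (adjusted p 0.00478), under the 2-fold minimum on the log2(FPKM + 1) scale, while its FPKM was 2.62-fold lower and the libraries did not overlap. These CD43+ values came from about 10 to 18 APELA fragments a library if the shortest transcript was the source and about 72 to 126 if the longest was.

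Over longer spans, all 3 members differed between CD31+CD34+ cells and H1. APLNR and APLN were called raised, beside 16.9% of all genes, by 8.05 ± 0.10 (adjusted p 9.05e-14) and 4.30 ± 0.09 (adjusted p 2.01e-12). The call of APLN was tied to the filter here too. APELA was called lowered, beside 23.2%, by -2.55 ± 0.15 (adjusted p 1.08e-08).

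Between APLNR+ and CD43+ cells 0 members were raised, beside 14.1% of all genes. APLNR and APELA were lowered, beside 19.4%, by -3.96 ± 0.10 (adjusted p 1.10e-11) and -2.16 ± 0.15 (adjusted p 6.41e-08). APLN differed by 0.18 ± 0.09 (adjusted p 0.0748) on the compressed scale. By estimated fragments, 23 against 117, it was 5.72-fold higher in CD43+ cells (95% exact interval 3.63 to 9.37, counting error only). Against H1, CD43+ cells retained a raised APLNR, beside 14.6%, at 4.01 ± 0.10 (adjusted p 8.31e-12) and 44.9-fold in FPKM. APELA was lowered there, beside 22.5%, at -3.15 ± 0.15 (adjusted p 1.66e-09), and the change of APLN was not called at -0.13 ± 0.09 (adjusted p 0.181). In estimated fragments, 117 against 219, APLN was 1.73-fold lower in CD43+ cells than in H1 (95% exact interval 1.38 to 2.19, counting error only), and the 3 libraries of each did not overlap. The 6 comparisons share libraries and are not independent of each other.

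**Figure D2:**
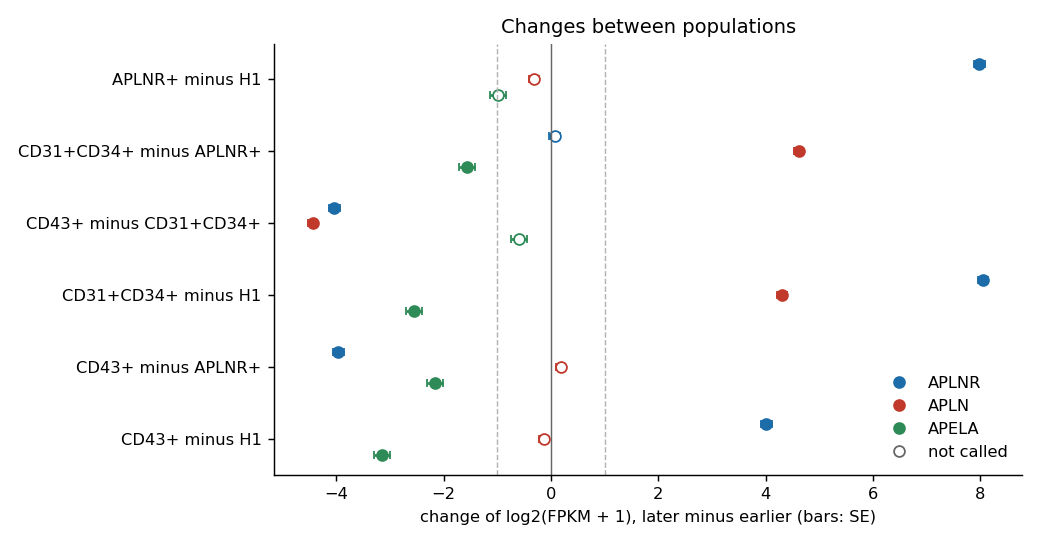
Change of log2(FPKM + 1) of each member in the 6 comparisons, later minus earlier, with SE bars, dashed lines at the 2-fold minimum and open circles where the change was not called. APLNR and APLN fall together at the last step (-4.03 and -4.44), while APELA is negative in all 6.

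In order of level, APLNR went from H1 through CD43+ cells to APLNR+ and CD31+CD34+ cells, and the last 2 of these did not differ beyond their spread. The order for APLN was APLNR+, CD43+, H1 and CD31+CD34+ cells. Its neighbours APLNR+ and CD43+, and CD43+ and H1, did not pass the test, although the libraries of each pair did not overlap. The order for APELA was CD43+, CD31+CD34+, APLNR+ and H1, and each neighbouring pair had an adjusted p under 0.05. A two-sided exact permutation test of 3 against 3 libraries cannot go below 0.1, which it reached in every comparison of every member but APLNR between APLNR+ and CD31+CD34+ cells (p 0.5).

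APELA was the predominant ligand in H1 and APLNR+ cells, and APLN was in CD31+CD34+ cells. APLN made up 2.25% ± 0.00864 of the summed ligand FPKM in H1 and 0.442% ± 0.211 in APLNR+ mesoderm (SD, n = 3). In CD31+CD34+ cells it made up 95.2% ± 0.826, and in CD43+ cells 25.8% ± 4.32. In single libraries the share was 94.3% to 95.8% in CD31+CD34+ cells and at most 30.7% elsewhere. The summed ligand level went from 12.2 ± 0.913 FPKM in H1 down to 5.65 ± 1.41 in APLNR+ cells, up to 25.4 ± 2.19 in CD31+CD34+ cells and down again to 0.629 ± 0.159 in CD43+ cells. The share in CD43+ cells compares 2 transcripts that were both below 1 FPKM. Its direction can turn with the length assumed for APELA: exchanging the shortest for the longest annotated transcript, a factor of 6.84, would put APELA at 0.0679 FPKM there, below APLN at 0.164. The same exchange either way left APELA above APLN in all 3 libraries of H1 and of APLNR+ cells, and below it in all 3 CD31+CD34+ libraries. The course of the summed level did depend on it. Raised by this factor, APELA would be at 81.9, 38.5, 8.32 and 3.18 FPKM in order of stage. The summed level would then fall at every stage, without a rise in CD31+CD34+ cells.

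As a difference of log2(FPKM + 1), APLN minus APELA, the balance was -3.34 ± 0.08 in H1 and -2.67 ± 0.31 in APLNR+ mesoderm, turned positive in CD31+CD34+ cells at 3.51 ± 0.17 and was -0.33 ± 0.07 in CD43+ cells (SD, n = 3). Its steps were 0.68 ± 0.18, 6.18 ± 0.20 and -3.84 ± 0.11 (SE). None of the libraries overlapped at any step, and an exact permutation test, two-sided, gave p 0.1 for each, the smallest possible and 0.1 after adjustment over the 3 steps. The direction of the first step depended on the pseudocount (-0.47 with 0.1 in place of 1), and the later steps kept theirs. The APLN share of the summed FPKM, which has no pseudocount, fell at the first step, from 2.25% to 0.442%. The rise of 0.68 is therefore no shift toward APLN.

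The receptor exceeded its ligands in every population but H1. Divided by the summed ligand FPKM, APLNR was at 0.0437 ± 0.0155 in H1, 71.4 ± 21.6 in APLNR+ mesoderm, 15.8 ± 0.405 in CD31+CD34+ HEPs and 39.2 ± 10.1 in CD43+ HPCs (SD, n = 3). With the values as deposited, the ratio was lowest among the differentiated libraries in the 3 CD31+CD34+ libraries (15.5 to 16.3), where both receptor and APLN were high. This order depended on the length assumed for APELA. Raised by the factor of 6.84, APELA would be at 38.5, 8.32 and 3.18 FPKM in the differentiated populations in order of stage. The ratio of means would then be highest, not lowest, in CD31+CD34+ cells. These are transcript ratios and say nothing of secreted peptide.

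**Figure D3:**
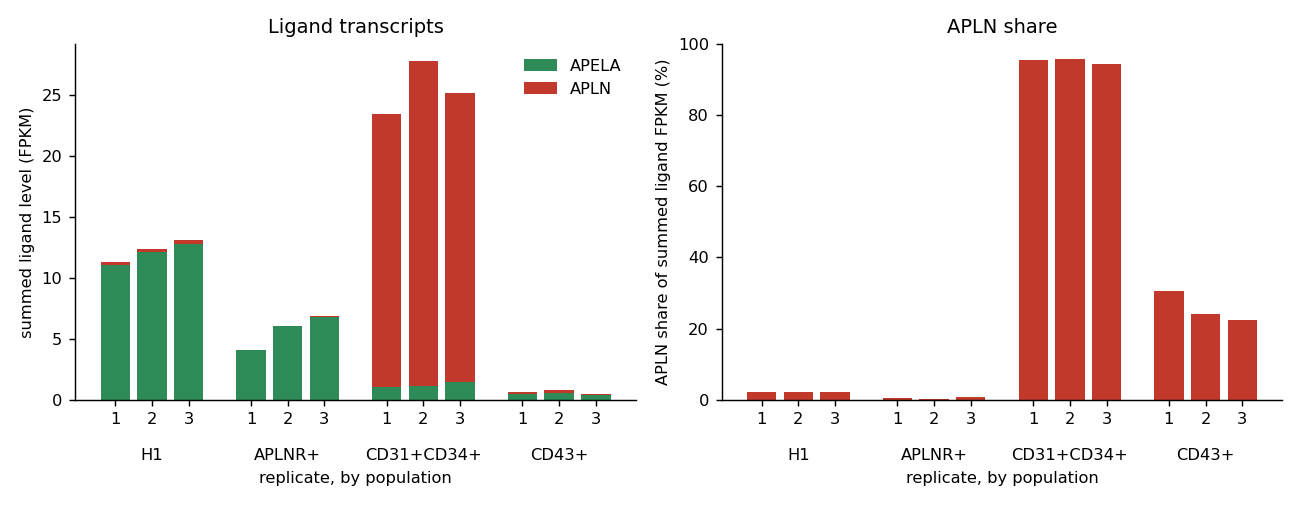
Stacked bars of APELA and APLN FPKM in each library (left) and APLN as a percent of their sum (right), by replicate and population. APLN makes up 94.3% to 95.8% of the sum in CD31+CD34+ libraries, and the summed level drops to between 0.455 and 0.766 FPKM in CD43+ libraries.

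Cell type marker lists changed over the same stages. The pluripotency list (5 genes, among them POU5F1 and SOX2) summed to 1791 to 1879 FPKM in H1, 559 to 640 in APLNR+ mesoderm, 297 to 374 in CD31+CD34+ HEPs and 146 to 172 in CD43+ HPCs, in the same order as APELA. In APLNR+ cells, where APELA was at 5.62 FPKM, the genes of this list differed widely. SOX2 was at 0.269 ± 0.0638 FPKM and NANOG at 9.32 ± 1.40. DPPA4 was at 61.3 ± 6.42 FPKM, LIN28A at 178 ± 16.2 and POU5F1 at 354 ± 20.8. The part of pluripotent cells in the APELA values was not tested.

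The endothelial list (8 genes, among them CDH5 and TIE1) summed to 27.4 to 39.2 FPKM in H1, 17.8 to 23.2 in APLNR+ mesoderm, 1213 to 1383 in CD31+CD34+ HEPs and 482 to 585 in CD43+ HPCs. All 8 of its genes averaged at least 1 FPKM in CD43+ cells, CDH5 at 33.9 ± 6.41 and TIE1 at 95.6 ± 10.96 (SD, n = 3). The receptor was 17.002-fold lower there than in CD31+CD34+ cells and APLN 148-fold, and the summed endothelial list was lower by less than either. The blood list (7 genes) went from 21.4 to 28.5 FPKM in CD31+CD34+ cells up to 1199 to 1340 in CD43+ cells, with 6 of 7 at 1 FPKM or more. The part of these endothelial transcripts in the APLNR level of CD43+ libraries was not tested. The smooth muscle and fibroblast list (5 genes) summed to 423 to 565 FPKM in APLNR+ cells and 346 to 421 in CD31+CD34+ cells. It summed to at most 107 FPKM in H1 and 97.0 in CD43+ cells. TAGLN made up most of the sum in APLNR+ and CD31+CD34+ cells, at 466 ± 69.7 and 274 ± 29.4 FPKM, and the other genes of the list had other courses. ACTA2 and PDGFRB were highest in CD43+ cells, at 34.8 ± 6.93 and 17.5 ± 4.38 FPKM, and COL1A1 in CD31+CD34+ cells, at 85.0 ± 8.14. MYH11 averaged at most 0.167 FPKM in any population. The mesoderm list (7 genes) summed to 239 to 301 FPKM in APLNR+ cells and 240 to 347 in CD31+CD34+ cells. KDR averaged 277 ± 57.7 FPKM in the latter and made up most of the sum there. It was the 1 gene of the 7 called raised at that step, beside 12.5% of all genes, and 5 were called lowered, beside 17.1%. MESP1 went from 26.2 ± 5.41 to 1.08 ± 0.305 FPKM, MIXL1 from 71.3 ± 20.1 to 1.10 ± 0.223 and EOMES from 56.5 ± 4.28 to 4.14 ± 0.0637. The endoderm list (6 genes) was highest in CD31+CD34+ cells, at 53.1 to 62.8 FPKM. SOX17 at 24.2 ± 4.07 FPKM and HHEX at 19.003 ± 0.812 made up most of the sum there. HHEX was nearly as high in CD43+ cells, at 17.98 ± 2.83 FPKM. APOA1 was also highest in CD31+CD34+ cells, at 10.97 ± 1.54 FPKM, as was FOXA2, at 0.899 and too low to be tested. AFP was highest in H1, at 8.56 ± 0.869 FPKM, and TTR in CD43+ cells, at 4.37 ± 0.496. The part of the smooth muscle and fibroblast, mesoderm and endoderm lists in the member values was not tested.

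Genes of peptide processing, receptor signaling, related receptors, endothelial tip cells and the hypoxia response were described from 6 lists. These hold 50 genes, of which 42 were expressed highly enough to be tested. Between H1 and APLNR+ cells 11 of 42 were raised (26.2%) and 3 lowered (7.14%). At the step to HEPs 15 were raised (35.7%) and 8 lowered (19.0%), and at the step to HPCs 6 were raised (14.3%) and 12 lowered (28.6%). These shares stand beside 8.3% and 7.62%, 12.5% and 17.1%, and 5.58% and 8.79% of all genes. The lists were chosen with earlier results of these data known, so the shares are given as a description only.

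Of 7 genes for processing and breakdown of the peptides, all were tested, and 2, 1 and 1 were raised and 1, 3 and 3 lowered at the consecutive steps. Their median log2 changes were 0.63, -0.26 and -0.48, where all genes had -0.12, -0.01 and -0.0049. FURIN, a proprotein convertase that can cleave both precursors, had 3.39 ± 0.130, 14.6 ± 1.63, 74.8 ± 3.10 and 36.6 ± 3.69 FPKM in order of stage (SD, n = 3). Its log2 change at the middle step was 2.28 ± 0.10 (SE, adjusted p 2.24e-09), so it was highest where APLN was highest. KLKB1, plasma kallikrein, which can cut apelin, had 6.53 ± 0.824 FPKM in H1 and 7.54 ± 0.643 in APLNR+ cells, and fell by 2.60 ± 0.10 (adjusted p 7.29e-10) to 0.408 ± 0.0661 in CD31+CD34+ cells. MME, the membrane peptidase neprilysin, which degrades apelin, fell by 2.00 ± 0.13 (adjusted p 6.29e-08) between the same populations, from 23.5 ± 3.12 to 5.12 ± 0.931 FPKM.

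All 11 genes for signal transduction at the receptor were tested, of which 3, 3 and 1 were raised and 1, 1 and 1 lowered, with medians of 0.17, 0.79 and -0.01. ARRB1, which encodes beta-arrestin 1, rose by 1.96 ± 0.14 (adjusted p 1.89e-07) with the receptor, from 3.33 ± 0.321 to 16.0 ± 2.71 FPKM, and stood at 32.9 ± 2.86 in CD43+ cells. ARRB2, which encodes beta-arrestin 2, went the other way at that step, from 12.9 ± 0.0140 to 4.46 ± 0.216 FPKM, and rose at the last step by 1.79 ± 0.09 (adjusted p 7.81e-09) to 34.1 ± 1.53 FPKM. GNAI1, an inhibitory G protein alpha subunit, rose by 1.77 ± 0.13 (adjusted p 1.84e-07), from 8.74 ± 1.56 to 32.1 ± 2.64 FPKM, when APLNR appeared.

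Among 8 genes downstream of the receptor in endothelium, all tested, 1, 5 and 1 were raised and 0, 0 and 2 lowered, with medians of 0.16, 1.23 and -0.71. NOS3, endothelial nitric oxide synthase, had 1.69 ± 0.418, 1.77 ± 0.311, 40.7 ± 2.86 and 6.41 ± 0.781 FPKM over the stages. It rose by 3.92 ± 0.14 (adjusted p 2.92e-10) and then fell by 2.50 ± 0.14 (adjusted p 2.22e-08). KLF2, a flow-responsive transcription factor, had 0.0527 ± 0.0771, 0.234 ± 0.116, 10.9 ± 4.13 and 0.785 ± 0.283 FPKM and rose by 3.22 ± 0.20 (adjusted p 3.68e-08). Of its 4 libraries at 1 FPKM or more 3 were CD31+CD34+ libraries, so like APLN it was tested through the population where it was high. Both had their highest mean in CD31+CD34+ cells, as APLN did. MEF2C, a transcription factor, rose by 3.22 ± 0.17 (adjusted p 8.55e-09) at the same step and again at the last by 1.46 ± 0.17 (adjusted p 1.59e-05), to 34.8 ± 7.81 FPKM.

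Only 3 of 9 related receptors were tested, and AGTR1 and AGTR2, the angiotensin receptors, averaged under 0.05 FPKM in every population. The 3 tested gave 2, 1 and 0 raised and 0, 1 and 2 lowered, with medians of 2.03, 0.40 and -1.12. ACKR3, a scavenging chemokine receptor, rose by 3.58 ± 0.15 (adjusted p 1.14e-09) to 14.4 ± 2.50 FPKM in APLNR+ cells and was back at 1.21 ± 0.0618 in CD31+CD34+ cells. CXCR4, the receptor of CXCL12, rose by 2.03 ± 0.15 (adjusted p 2.08e-07) and reached 18.03 ± 3.55 FPKM in CD31+CD34+ cells. CMKLR1, the chemerin receptor, fell by 1.12 ± 0.09 (adjusted p 8.12e-07) at the last step, from 1.56 ± 0.213 to 0.178 ± 0.0632 FPKM, and it too reached the minimum for testing only through CD31+CD34+ cells, so that this difference was tied to the filter. All 3 were far below APLNR in APLNR+ and CD31+CD34+ cells.

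Of 7 endothelial tip cell genes 6 were tested, with 1, 4 and 2 raised, 0, 1 and 2 lowered and medians of 0.11, 1.24 and -0.45. DLL4, the Notch ligand of tip cells, rose with APLN by 3.03 ± 0.11 (adjusted p 3.16e-10) to 9.36 ± 0.704 FPKM, but rose again by 1.40 ± 0.11 (adjusted p 3.95e-07) to 26.3 ± 1.84 FPKM in CD43+ cells, where APLN was at 0.164. NID2, a basement membrane protein, rose by 2.72 ± 0.13 (adjusted p 5.53e-09) to 14.4 ± 1.78 FPKM and remained at 9.03 ± 1.70 FPKM in CD43+ cells (change -0.63, not called). ANGPT2, a ligand of the TEK receptor, rose earlier, by 2.57 ± 0.11 (adjusted p 1.39e-09) to 5.08 ± 0.656 FPKM in APLNR+ cells, where APLN was lowest, and fell by 1.39 ± 0.11 (adjusted p 2.30e-07) at the next step. UNC5B, a netrin receptor gene named here after its values were seen, was the one tested gene of this list called raised with APLN and lowered with it, at 5.03 ± 0.0842, 6.06 ± 0.662, 15.6 ± 1.14 and 3.55 ± 0.372 FPKM.

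Hypoxia response genes were listed because APLN is a known target of low oxygen. Of 8, 7 were tested, with 2, 1 and 1 raised, 1, 2 and 2 lowered and medians of 0.32, -0.30 and -0.55. EGLN3, a prolyl hydroxylase, rose by 3.22 ± 0.09 (adjusted p 4.78e-11) to 70.9 ± 4.22 FPKM in APLNR+ cells and fell by 2.36 ± 0.09 (adjusted p 7.00e-10) to 13.001 ± 1.41 where APLN rose. NDRG1, a stress-responsive gene, had its highest mean in CD31+CD34+ cells, at 12.4 ± 2.06 FPKM, and fell by 2.22 ± 0.16 (adjusted p 2.55e-07) at the last step. ADM, which encodes the vasoactive peptide adrenomedullin, changed by -1.202 ± 0.17 (adjusted p 8.86e-05) at the first step and by -2.01 ± 0.17 (adjusted p 1.24e-06) at the last, from 47.0 ± 5.88 FPKM in H1 to 2.25 ± 0.777 in CD43+ cells.

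**Figure D4:**
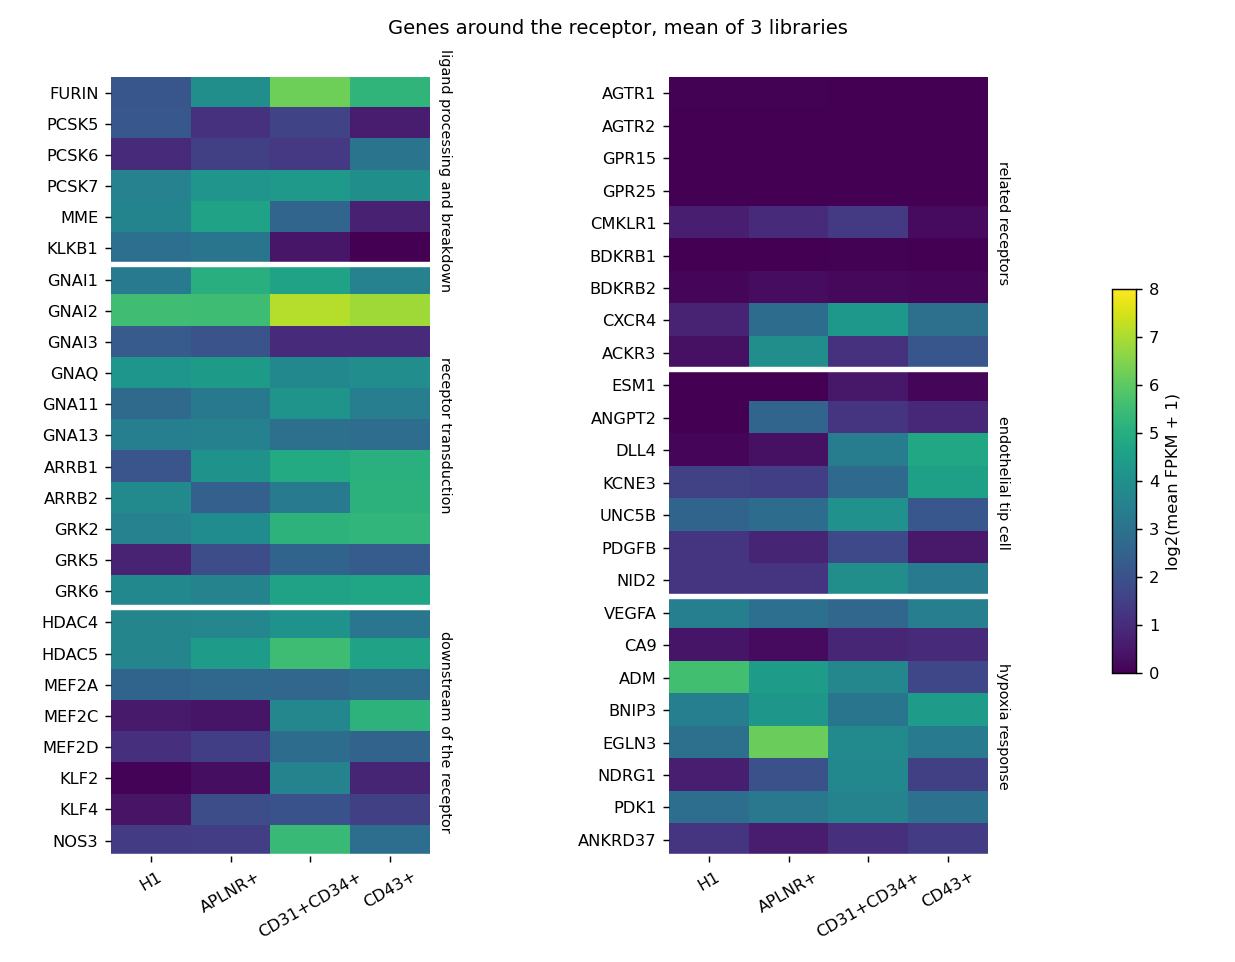
Heat map of log2(mean FPKM + 1) over 3 libraries for genes of the 6 lists, with populations in columns. NOS3, KLF2 and NDRG1 are brightest in CD31+CD34+ cells, EGLN3 and ACKR3 in APLNR+ cells, and 6 of the 9 related receptors are dark throughout.

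The genes whose profile was most like that of each member were taken by Pearson's r of log2(FPKM + 1) over the 12 libraries, among 7670 genes with a population mean of at least 10 FPKM. The points are 4 populations of 3 libraries each, so r mainly describes the population means and is given as a description. For APLNR the 5 nearest were FLNC (r 0.997), PREX1 (0.995), BMPER (0.994), COL5A1 (0.994) and WLS (0.993). FLNC encodes filamin C, an actin crosslinker, BMPER a secreted BMP-binding protein, COL5A1 a fibrillar collagen and WLS the Wnt carrier. BMPER had 0.395 ± 0.158, 80.4 ± 0.972, 142.9 ± 7.44 and 10.9 ± 1.30 FPKM over the stages, and WLS 0.530 ± 0.110, 92.2 ± 2.10, 61.0 ± 10.2 and 10.7 ± 1.94 FPKM (SD, n = 3). All 5 had higher means in APLNR+ and CD31+CD34+ cells than in CD43+ cells and lower ones in H1, as the receptor did.

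For APLN the nearest were LRRC4B (r 0.995), S100A13 (0.995), SOST (0.991), SV2A (0.988) and AFAP1L2 (0.987). SOST, which encodes the secreted Wnt inhibitor sclerostin, was the one with the sharpest pulse, at 0.0652 ± 0.0194, 0.0558 ± 0.0223, 46.7 ± 3.68 and 0.708 ± 0.1498 FPKM. S100A13, a calcium-binding protein, had a high base of 56.1 to 63.5 FPKM as population means outside CD31+CD34+ cells and 206 ± 9.08 FPKM within them. APLN went from nearly absent to 24.2 FPKM, and of these 5 SOST alone shared a start below 1 FPKM.

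Among the nearest for APELA were ZMAT4 (r 0.997), ENAH (0.994), NEK4 (0.994) and TRIML2 (0.994). TRIML2, a tripartite motif-like gene, had 40.9 ± 0.264, 15.6 ± 1.99, 1.86 ± 0.495 and 0.402 ± 0.0294 FPKM. NEK4, a kinase gene, declined more shallowly, from 16.1 ± 0.511 to 6.69 ± 0.592 FPKM. Between the members themselves r was 0.48 for APLNR and APLN, -0.45 for APLNR and APELA and -0.39 for APLN and APELA, so no member resembled another as closely as its nearest genes did.

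**Figure D5:**
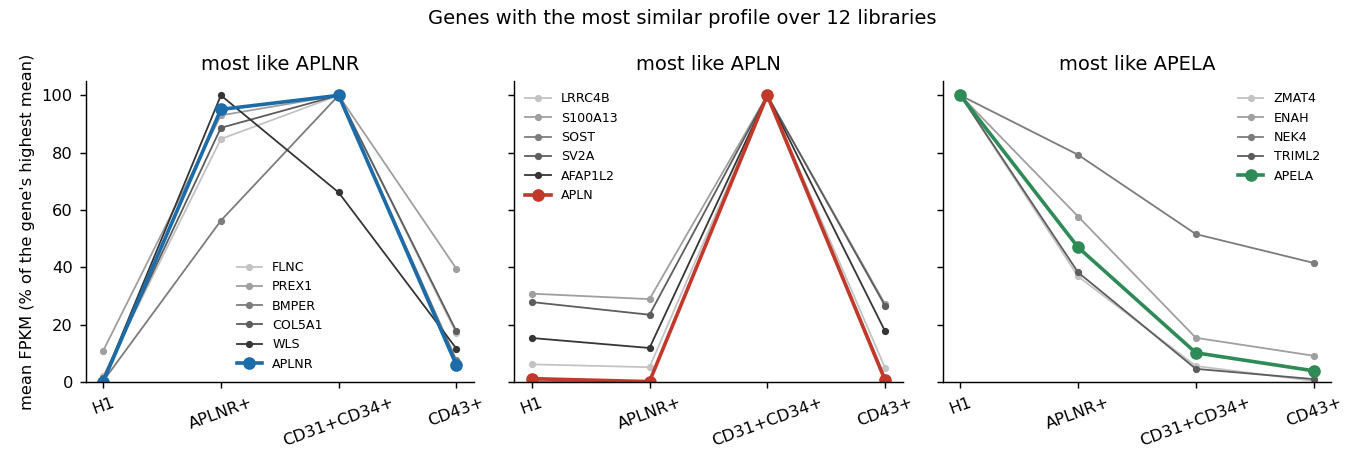
Mean FPKM of each member (coloured) and the genes named as most similar to it (grey) in each population, as a percent of each gene's highest population mean. APLN and SOST leave a near-zero base at CD31+CD34+ cells, whereas S100A13 and SV2A start well above it, and the APELA group declines at every stage.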

How the data were processed

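RNA-seq libraries of H1 and of 3 populations derived from it were used, 3 each, with groups and replicate numbers from the sample titles. The labels name Trizol for RNA extraction and an Illumina TruSeq kit for libraries from 2 ug. FPKM values of the 12 libraries were deposited by the authors in 1 table, and 0 of its columns had no sample. The submitters' processing notes name BWA, Bowtie, RSEM and hg19 without roles or versions, and the annotation is not given in the sources used here. The table names genes by symbol. It held 58365 lines of values, and of the lines of 345 repeated symbols the one with the highest mean entered. Each member stood on 1 line.

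FPKM values are not counts, so no count model was run. Genes with at least 1 FPKM in at least 3 libraries (14840) were fitted as log2(FPKM + 1) with limma 3.58.1 in R 4.3.3 (lmFit, contrasts.fit, eBayes with trend) in 1 model of 4 populations without covariates, with Benjamini-Hochberg adjustment per comparison. Fold changes on this scale understate changes of low genes. Calls needed an adjusted p under 0.05 and 2-fold. Fits without a library kept the gene set of all 12. On data simulated for APLNR+ minus H1 with 200 of 14840 genes changed by 3 on the log2 scale, 199 were called, as were 3 unchanged genes, and 0 had the wrong sign.

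Fragments were estimated from low values of genes with 1 transcript in GENCODE release 29 (96.8% to 98.1% within 0.15 of a whole multiple), with 200 bases taken off each length. For RSEM estimates these are approximate.

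The members and lists were chosen with earlier results of these data known. Named were the members, 3 surface markers, up to 3 called genes per list with the largest change at a consecutive step, and the 5 genes most like each member. Of the genes under these rules, some are not reported here. Gene neighbours came from a RefSeq table of GRCh38. Alternatives were a pseudocount of 0.1, other filters, upper-quartile and median-of-ratios scaling, quantile normalization, eBayes without trend, fits to only the populations compared, replicates 2 and 3 alone, the replicate number as a block, and leaving out each library. The rest was done in Python 3.11.15 (scipy 1.17.1, pandas 2.3.3, numpy 2.4.6, matplotlib 3.10.9).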

Additional observations from a re-analysis of the deposited data

How the results depend on the processing

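Of 390 alternative values for the 18 member changes, 382 kept their direction and side of the threshold and 8 did not. The change of APLNR from APLNR+ to CD31+CD34+ cells, which was not called, became -0.17 under quantile normalization. With a pseudocount of 0.1, 4 changes were newly called: APLN from H1 to APLNR+ cells (-1.58), APLN from APLNR+ to CD43+ cells (1.05), APELA from H1 to APLNR+ cells (-1.11) and APELA from CD31+CD34+ to CD43+ cells (-1.23). APLN between H1 and CD43+ cells was then at -0.53 (adjusted p 0.0330, over all its alternatives 0.0330 to 0.442), still under 2-fold. The first step of the ligand balance turned to -0.47. The APELA change from H1 to APLNR+ cells ranged from -1.12 to -0.81 when single libraries were left out, and was called without H1 replicate 1, APLNR+ replicate 2 or APLNR+ replicate 3. Over all genes, a pseudocount of 0.1 gave 3632 calls in place of 2363 between H1 and APLNR+ cells and 3605 in place of 2133 between CD31+CD34+ and CD43+ cells. With a mean of at least 5 FPKM these were 1193 and 1313, and 3752 in place of 5955 (CD31+CD34+ minus H1), 3080 in place of 4982 (CD43+ minus APLNR+) and 3309 in place of 5501 (CD43+ minus H1), since fewer genes were tested. APELA had no value under that filter.

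The labels do not tie the replicate numbers to a shared source, and not every same-number correlation of deviations was over 0.1, so the samples were not taken as pairs. These correlations ranged from -0.02 to 0.43 and 17 of 18 were positive. The own number correlated best in 23 of 36 cases, where 12 would follow if numbers carried nothing. For replicate 1, the shallowest library of each population, all 6 lay between 0.196 and 0.429, a hint from the data and not the design. The fit with the replicate block changed no member's call (APELA from H1 to APLNR+ cells -0.99, adjusted p 5.79e-05) and gave 2369 calls at that step.

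Depth limits APLN in APLNR+ cells, at about 3 to 15 fragments a library, and both ligands in CD43+ cells.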

Other observations

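No other gene of the RefSeq table overlaps any of the 3 members, and the values of the nearest protein-coding gene on each side are given. Beside APLN on chromosome X, XPNPEP2, an aminopeptidase gene, averaged 0.168, 0.107, 1.38 and 0.669 FPKM over the stages and was called raised at the step at which APLN rose, by 1.10 on the log2(FPKM + 1) scale. Like APLN it reached the minimum for testing only through CD31+CD34+ libraries, so the call was tied to the filter. On its other side OCRL, a phosphatase gene, was called at no consecutive step (3.36, 2.60, 3.73 and 5.08 FPKM). Beside APLNR on chromosome 11, TNKS1BP1 averaged 18.9, 17.4, 37.1 and 11.9 FPKM and did not rise with the receptor in APLNR+ cells. It was called raised by 1.06 at the next step and then fell by 1.56. On the other side of APLNR, LRRC55 averaged 0.332, 0.850, 0.112 and 0.0385 FPKM, highest in APLNR+ cells, and was too low to be tested. Beside APELA on chromosome 4, TRIM61 averaged 2.96, 1.87, 0.595 and 0.681 FPKM and was called at no consecutive step. SMIM31, on the other side of APELA, averaged at most 0.00189 FPKM and was not tested.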
